A study of Mus musculus with 60 samples.

Results

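The cytosolic ribosomal protein genes encode the protein parts of the ribosome that translates nuclear mRNAs. They were taken by name from the deposited count table: protein-coding rows whose symbol begins with Rpl or Rps followed by a digit, or by p and a digit, together with Rpsa, and without the Rps6k kinases and Rps19bp1. This gave 93 of the 55357 rows of the table. The usual names of the subunit proteins made up 77 of them, 46 of the large and 31 of the small subunit. A further 7 were paralogs of such a gene (symbols ending in l or l1) and 9 were retrocopies. A filter on low counts left 88 members, namely all 77 usual names, 5 paralogs and 6 retrocopies. The 5 left out were Rpl39l, Rpl10l, Rps18-ps6, Rpl36-ps4 and Rplp2-ps1, none of which had more than 22 counts in a library.

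The study sorted epithelial cells from the intestine of mice that carry Lgr5-2A-eGFP, an allele in which green fluorescent protein (GFP) is made along with Lgr5, a receptor of intestinal stem cells. All groups shared this allele and an age of 8 weeks, and no other treatment was given in the labels. The small intestine was divided into proximal, middle and distal parts and the colon into proximal and distal parts. In each part GFP-high, GFP-intermediate and GFP-negative cells were collected, with 4 libraries for each of the 15 groups and 60 in all. Each fraction held at least 50000 cells in the small intestine and 30000 in the colon. The label "negative" describes GFP and not a cell type, so this fraction can hold any epithelial cell without the reporter. Nothing in the labels said that the 4 libraries of a group came from separate mice, so p-values here measure the spread between these libraries, which may be technical.

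A ribosome is built in the nucleolus from ribosomal RNA and one copy of nearly every protein in each subunit, and rapidly growing cells spend much of their transcription on it. The mRNAs of these proteins typically begin with a C followed by a run of pyrimidines, the terminal oligopyrimidine tract, through which mTOR signalling and the binding protein LARP1 set their translation. In the intestine the dividing cells at the crypt base renew the epithelium, while the differentiated cells that they replace have left the cell cycle.

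The start of the transcript was looked up because it is the feature the family is best known for. Promoter sequence from RefSeq (GRCm38.p6) was matched by symbol for 57 of the 77 usual names. A pyrimidine run was here a C followed by at least 4 further C or T, read in the direction of transcription. It had to begin within 10 bases of an annotated start. Such a run stood at any annotated start in 34 of the 57 genes (59.6%) against 34.3% of 26959 other genes. A gene with several annotated starts was counted once, and more starts give more chances of a match. CCGGAAG on either strand is a motif that the ETS family of factors can bind. In the window of 300 bases at any annotated start it stood in 24 of 57 genes (42.1%) against 9.86%. AAGATGG on either strand stood in 9 (15.8%) against 7.26%. TATAA, read in the direction of transcription in the 50 bases before a start, stood in 4 (7.02%) against 5.88%. A match is a description of the letters in these windows. The sequences that follow are of 6 members on which the results below turn or whose run is long. They show the 30 bases around the annotated start with the longest pyrimidine run, with that run in capitals.
Rps6 (chr4:86857353-86857382, minus strand): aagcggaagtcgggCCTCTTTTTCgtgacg
Rps26 (chr10:128626492-128626521, minus strand): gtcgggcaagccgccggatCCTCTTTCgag
Rps27 (chr3:90213634-90213663, minus strand): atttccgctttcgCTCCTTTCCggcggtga
Rplp2 (chr7:141447636-141447665, plus strand): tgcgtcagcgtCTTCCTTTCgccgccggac
Rpl28 (chr7:4792950-4792979, plus strand): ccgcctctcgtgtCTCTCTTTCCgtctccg
Rpl15 (chr14:18270972-18271001, minus strand): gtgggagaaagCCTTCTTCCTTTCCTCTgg

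Library totals ran from 55411864 to 113917959 counts, with a median of 81230235, and the members took 1489930 to 6113285 counts of a library. Lgr5 mRNA lay between 145 and 598 CPM (counts scaled to a common library total) in GFP-high, between 55.7 and 188 in GFP-intermediate and between 1.64 and 17.4 in GFP-negative libraries, in the order of the sort. Epcam, an epithelial surface protein, was present in every library, at 1209 to 3053 CPM. The GFP-negative libraries also carried more RNA of other kinds of cells. The summed level of 25 immune cell markers was 586 to 4763 CPM in GFP-negative and 27.3 to 59.6 CPM in GFP-high libraries of the small intestine, and 143 to 1685 against 3.56 to 16.4 CPM in the colon. Enterocyte markers summed to 15696 to 45861 CPM in GFP-negative against 796 to 3270.1 CPM in GFP-high libraries of the small intestine, and goblet markers to 33487 to 60752 against 2099.6 to 4359.8 CPM. Paneth markers were higher in the GFP-high libraries there, at 5223 to 25639 against 447 to 1422 CPM. Ptprc, the pan-leukocyte surface protein, was at 43.9 to 429 CPM in GFP-negative and 2.13 to 33.2 CPM in GFP-high libraries. In the small intestine enteroendocrine markers were at 322 to 1315 in GFP-negative against 67.3 to 248 CPM in GFP-high libraries. Stromal markers there were at 16.2 to 106 against 8.58 to 15.4 CPM. Tuft markers were lower, at 26.5 to 61.6 against 106 to 359 CPM. In the colon the enterocyte, goblet and Paneth sums of the fractions overlapped, and the immune sum did not. Stromal markers there did not overlap either, at 28.8 to 112 against 11.3 to 19.8 CPM, nor did enteroendocrine markers, at 404 to 11516 against 93.9 to 371 CPM. These levels moved with the comparisons of GFP-high with GFP-negative cells below. All of them did so in the small intestine, and the immune, stromal and enteroendocrine sums in the colon. Their part in the results was not tested. In bulk samples fewer cells of a type and less RNA per cell cannot be told apart.

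The 5 GFP-negative libraries numbered 4, one from each part of the intestine, stood apart from the other GFP-negative libraries in the balance between the members. The GFP-high libraries of all parts except the proximal small intestine likewise lay mostly away from the GFP-intermediate ones. The balance is given in full further on, and results that rest on those 5 libraries are given with and without them.

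In every part of the intestine, ribosomal protein mRNAs made up more of the protein-coding counts of GFP-high libraries than of GFP-negative ones. In the proximal small intestine the share was 6.64, 6.79, 6.61 and 6.63% in the GFP-high libraries and 4.24, 2.31, 2.86 and 2.52% in the GFP-negative libraries. All GFP-high libraries lay above all GFP-negative ones there, and the single GFP-negative library at 4.24% was well above the other three. In the middle small intestine the shares were 6.65, 5.62, 6.55 and 5.75% against 2.64, 2.75, 2.76 and 2.44%, and in the distal small intestine 5.36, 5.94, 5.72 and 5.76% against 3.01, 2.96, 3.04 and 2.7%. Neither part showed any overlap. The proximal colon had 5.06, 4.38, 6.01 and 5.44% against 3.69, 3.97, 3.6 and 3.33%, and the distal colon 5.56, 5.71, 4.87 and 5.61% against 3.84, 4.14, 3.48 and 3.56%, again with no overlap but with the groups closer together.

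The ratio of the GFP-high to the GFP-negative mean share was 2.24 in the proximal, 2.32 in the middle and 1.94 in the distal small intestine, and 1.43 in the proximal and 1.45 in the distal colon. The table's batch column repeats the replicate number for all 60 libraries, so nothing separates batch from replicate. Within each number the GFP-high share exceeded the GFP-negative share in every part, by ratios of 1.57 to 2.95 in the proximal small intestine and 1.1 to 1.67 in the proximal colon. GFP-intermediate cells were close to GFP-high cells, with mean shares of 6.07 ± 0.371% (SD, n = 4), 5.85 ± 0.557% and 5.78 ± 0.25% along the small intestine and 4.95 ± 0.328% and 5.3 ± 0.287% along the colon. Their libraries overlapped those of the GFP-high cells in each part except the proximal small intestine, where the highest GFP-intermediate library reached 6.34%. No test was made on this sum over the members.

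**Figure D1:**
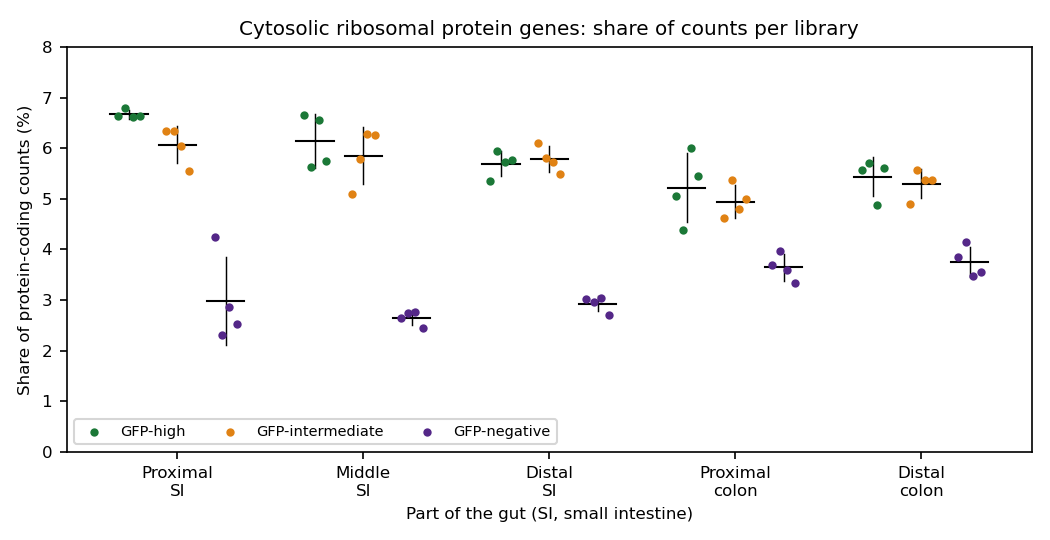
Share of protein-coding counts taken by the ribosomal protein genes (%, vertical axis) in each of the 60 libraries, by part of the intestine and GFP fraction; points are libraries, horizontal lines group means and thin lines the standard deviation. GFP-high points lie above GFP-negative points in all 5 parts, with means of 6.67 against 2.98% in the proximal small intestine and 5.44 against 3.75% in the distal colon.

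Single genes were compared with edgeR's quasi-likelihood test, fitted to all 60 libraries and adjusted by the Benjamini-Hochberg method over the 23360 genes that passed the filter, with 0.05 as the limit on the adjusted p for a call. Differences are log2 values, the first-named group minus the second. In the proximal small intestine the test called 81 of the 88 members higher in the GFP-high fraction and 0 lower, where 22.5% of all genes were called higher and 24.6% lower, with a median member difference of 0.93 and a median of 0.00 over all genes. All GFP-high libraries lay above all GFP-negative libraries in 81 members, against 21.7% of genes. The rise took in both subunits: 45 of 46 large and 31 of 31 small subunit genes under their usual names, with differences from 0.54 to 1.48 among the 77.

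Middle and distal small intestine gave smaller counts with a wider scatter. In the middle part 66 of 88 members were called higher and 0 lower (22.7% and 25.6% of genes), with a median of 0.82, and in the distal part 63 higher and 0 lower (25.7% and 26.2%), with a median of 0.66. The standard deviation of the difference among the 77 usual names was 0.37 in each of these parts and 0.18 in the proximal part. Counts in the colon were smaller again. The proximal colon had 41 members called higher and 0 lower (11.3% and 14%), the distal colon also 41 and 0 (11.2% and 13.9%), each with a median of 0.36. Among the members with a negative difference, 0 had an unadjusted p below 0.05 in each part except the proximal colon, where 1 did, and DESeq2 called 1 lower there and 0 in the other parts.

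Every GFP-high library lay above every GFP-negative one in 68 members in the middle small intestine (21.4% of genes), 50 in the distal small intestine (21.1%), 26 in the proximal colon (8.76%) and 40 in the distal colon (10.3%). By subunit, the middle small intestine had 38 of 46 large and 25 of 31 small subunit genes called higher, the distal small intestine 35 and 23, and each part of the colon 23 and 17. Members at more than a 2-fold rise and called numbered 29, 32 and 21 along the small intestine, 0 in the proximal and 3 in the distal colon, beside 12.8, 13, 15.2, 3.89 and 3.87% of all genes. The colon counts, 0 and 3.41% of the members, were thus not above that share. Without the 5 GFP-negative libraries numbered 4, the counts of members called higher were 83, 66, 57, 38 and 38 from the proximal small intestine to the distal colon, and the counts called lower 0, 1, 2, 1 and 3. With the library of each number left out across all groups, the count called higher in the proximal colon fell to 18 without replicate 3, and was 20 when only the GFP-high and GFP-negative libraries of that part were fitted. In the distal colon the count called higher ran from 31 to 39 with a replicate left out, in one group or in all.

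**Figure D2:**
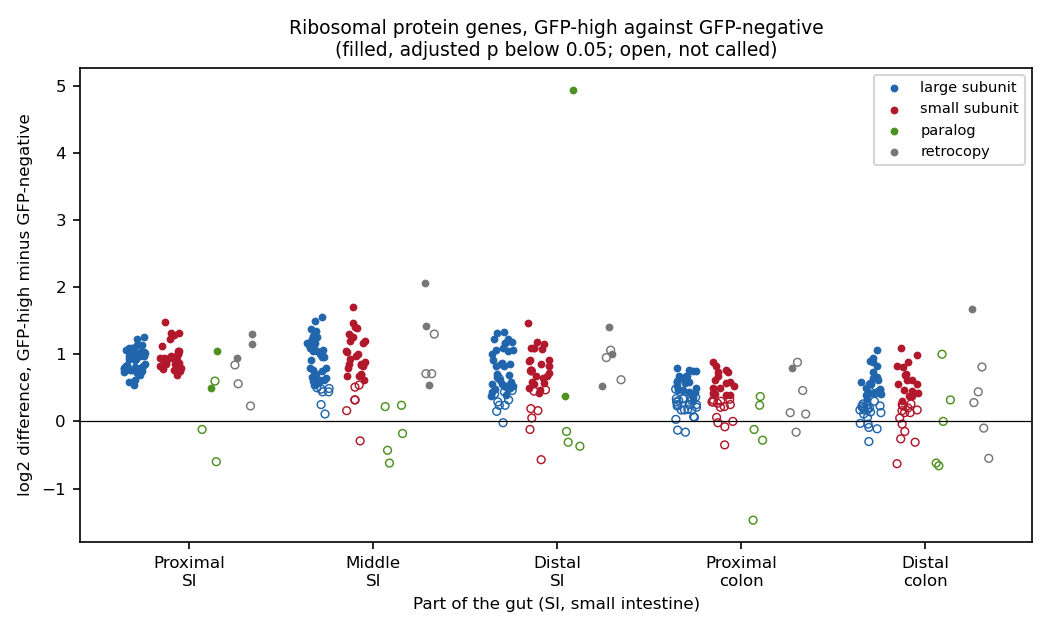
Difference between GFP-high and GFP-negative cells (log2, vertical axis) for each of the 88 members in each part of the intestine, by subunit, paralogs and retrocopies; each point is a gene, filled where called. In the proximal small intestine the usual names lie between 0.54 and 1.48 and 86 of the 88 members above zero, points of the other parts spread more widely, and the paralog at 4.94 in the distal small intestine is Rpl3l, with 15 counts in all against 0.

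In all 5 parts 40 of the 88 members were called higher, against 1534 of 23360 genes (6.57%). They included the P-stalk base Rplp0, the laminin receptor and small subunit protein Rpsa, Rps6, the main substrate of S6 kinase, Rpl3 near the peptidyl transferase centre, Rpl5 of the 5S RNA particle, Rpl12 and Rps26. A further 16 members were called in 1 part only, 14 of these in the proximal small intestine, among them Rps28, Rps29, Rps19, Rps16, Rps15, Rplp1, Rpl28 and Rpl41. No part called Rpl24, Rps27l, Rpl36al, Rpl10-ps3 or Rps18-ps5.

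Rplp0, which anchors the acidic stalk that recruits translation factors, had 2691, 2685, 2589.7 and 2552 CPM in GFP-high and 1738, 1201, 1345 and 1219.6 CPM in GFP-negative libraries of the proximal small intestine. In the distal colon it had 2425, 2475, 2072 and 2667 against 1982, 1989.9, 1735 and 1645 CPM. The groups did not overlap in either part, and the gap was narrower in the colon. The difference was 0.93 (SE 0.10, adjusted p = 5.82e-11) in the proximal small intestine, 1.00 and 0.83 in the middle and distal parts, 0.57 in the proximal colon and 0.39 (SE 0.10, adjusted p = 0.00287) in the distal colon. The other stalk proteins, Rplp1 and Rplp2, differed by 1.14 and 0.99 in the proximal small intestine, and Rplp1 was called in no other part (0.44, 0.41, 0.07 and -0.11).

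Rpsa had 2625, 2258, 2593 and 2030 CPM in GFP-high and 796, 856, 898 and 1028 CPM in GFP-negative libraries of the middle small intestine. It kept a gap in the distal colon, with 1988, 1957, 1779 and 2037 against 996, 1053, 1004 and 1155 CPM. No library of either fraction overlapped the other in these parts. The difference was 1.41 (SE 0.12, adjusted p = 4.4e-14) in the middle small intestine and 0.88 (SE 0.12, adjusted p = 1.84e-07) in the distal colon.

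Rps6 had 1800.3, 1362, 1447 and 1043 CPM in GFP-high and 425, 473, 445 and 707 CPM in GFP-negative libraries of the middle small intestine, a difference of 1.46 (SE 0.18, adjusted p = 1.56e-09). The library numbered 4 was the lowest of the GFP-high and the highest of the GFP-negative set. In the proximal colon its groups overlapped, with 1153, 782, 1162 and 857 against 516, 604, 458 and 800.1 CPM, and the difference was 0.73 (SE 0.18, adjusted p = 0.00143). Rpl12, which sits at the base of the stalk, was among the steadiest members, at 950.5, 931, 971 and 1007 against 547, 315, 391 and 374 CPM in the proximal small intestine, and its differences were 1.25, 1.37, 1.31, 0.75 and 0.90 from the proximal small intestine to the distal colon.

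Rpl3 differed by 1.03, 1.27 and 1.22 along the small intestine and by 0.75 and 0.56 in the colon. Rpl5 and Rpl11, which carry 5S RNA and can bind Mdm2 when ribosome assembly stalls, gave different calls in the colon, a contrast between the genes that was not itself tested. Rpl5 was called in all 5 parts (0.91, 1.27, 1.05, 0.67 and 0.59), and Rpl11 in the 3 parts of the small intestine (0.82, 0.75 and 0.52) but not in the colon (0.23 and 0.26, adjusted p = 0.156 and 0.109). Rps27a, made as a fusion with ubiquitin, was called in all 5 (0.86, 0.83, 0.68, 0.41 and 0.38). Rpl38, known for its role in the translation of Hox mRNAs, was called in the proximal and middle small intestine (0.80 and 0.65) and not elsewhere.

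Rps28 and Rps29, short proteins of the head of the small subunit, were called in the proximal small intestine and in no other part. Rps29 had 399, 450.5, 423 and 444 CPM in the GFP-high and 253, 259.8, 130.2 and 66.9 CPM in GFP-negative libraries of the proximal small intestine. In the middle small intestine it had 96, 109.9, 125 and 182 against 180.4, 273, 134 and 41.7 CPM. GFP-high was above GFP-negative in the first part, and in the second 3 GFP-negative libraries lay above the first 3 GFP-high ones while the library numbered 4 was lowest of all.

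The difference in Rps29 was 1.28 (SE 0.44, adjusted p = 0.0149) in the proximal small intestine and -0.29, -0.57, -0.35 and -0.63 in the other parts, none of them called. Without the 5 GFP-negative libraries numbered 4 it was 1.03 (adjusted p = 0.0103) in the proximal small intestine, and -0.86 (adjusted p = 0.0263) in the distal small intestine and -0.92 (adjusted p = 0.0284) in the distal colon, where it was then called lower. Rps28 showed 1.48 (SE 0.44, adjusted p = 0.00463) in the proximal small intestine and between -0.31 and 0.16 elsewhere, with 268, 268, 262 and 259.5 against 139.6, 119.8, 73.1 and 45.5 CPM in the proximal small intestine. Rps19, a head protein whose mutations are known from Diamond-Blackfan anaemia, differed by 1.31 in the proximal small intestine and was not called in the others.

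**Figure D3:**
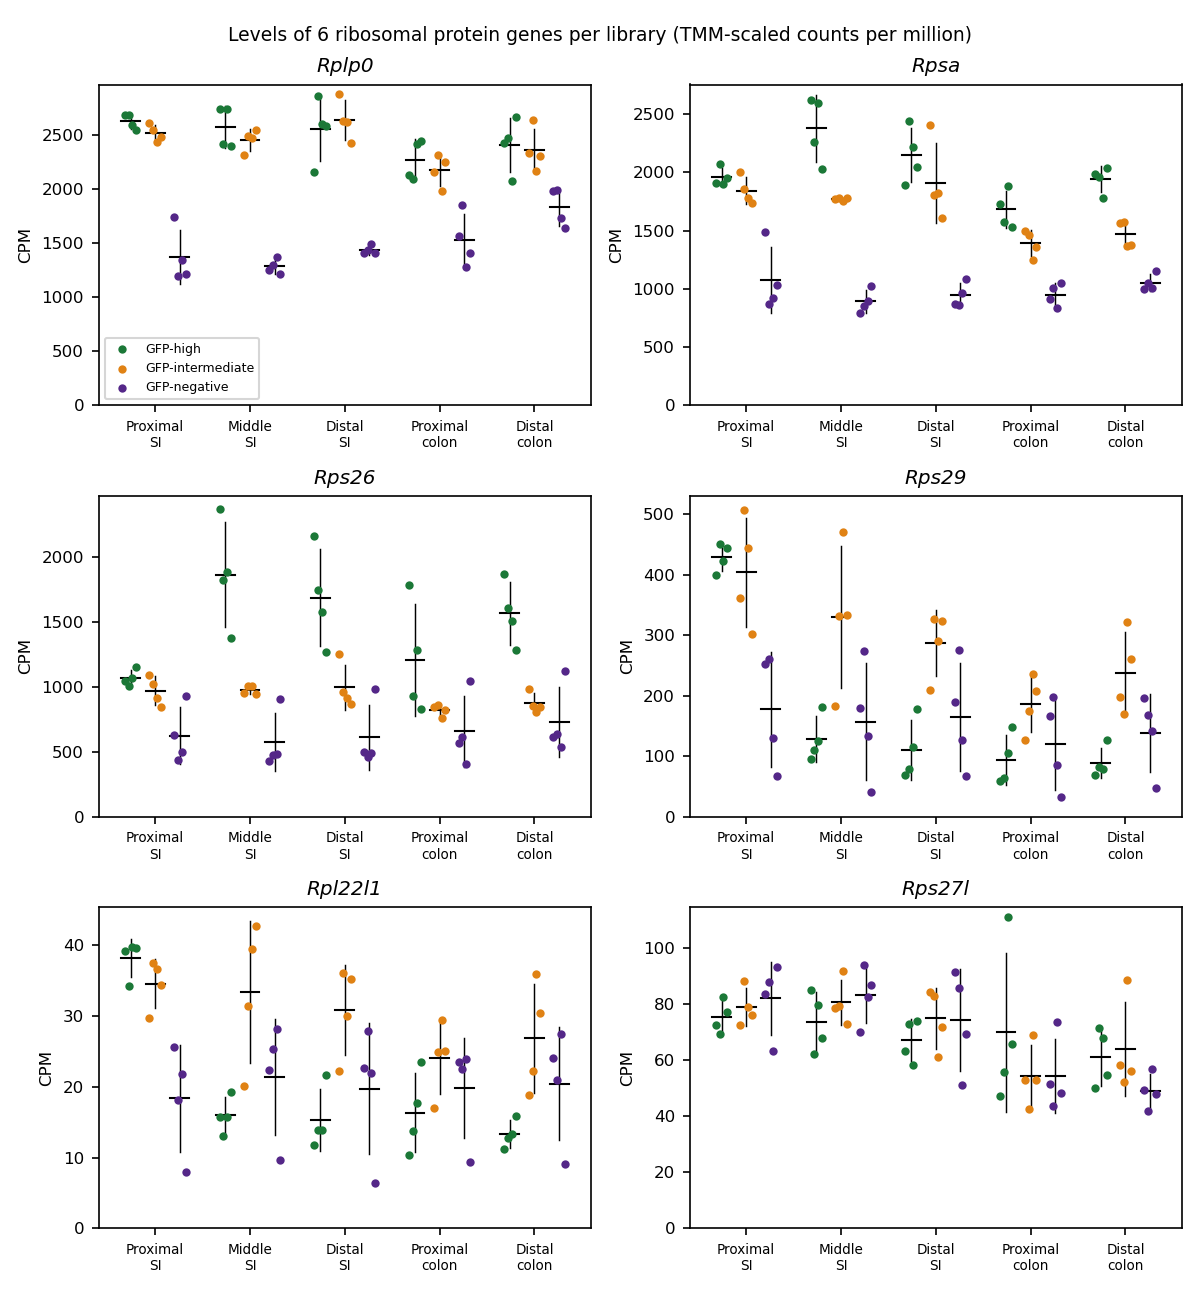
Level (CPM, vertical axes) of Rplp0, Rpsa, Rps26, Rps29, Rpl22l1 and Rps27l in every group; points are the 4 libraries, bars the mean and thin lines the standard deviation. Rplp0 and Rpsa are lower in GFP-negative cells in all 5 parts, and Rps29 in GFP-high cells is near 429 CPM in the proximal small intestine and near 128 CPM or below in the other parts.

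Rps26, which touches the mRNA next to the exit channel, was chosen together with Rps29 after their values were seen, as the usual names at the ends of the first component of the members. That component held 74.6% of the variance of 75 members over the 60 libraries, with weights of -0.367 for Rps29, -0.335 for Rps28 and -0.20 for Rps19, and of 0.257 for Rps26, 0.215 for Rpl26 and 0.187 for Rps12. In the middle small intestine Rps26 had 2370.1, 1821, 1889 and 1379 CPM in GFP-high and 428, 474, 486 and 908 CPM in GFP-negative libraries. All GFP-high libraries lay above all GFP-negative ones, and the GFP-negative library numbered 4 was just below the GFP-intermediate ones, which had 945 to 1009 CPM. The difference was 1.70 (SE 0.26, adjusted p = 1.6e-07), and 2.05 (adjusted p = 1.75e-12) without the 5 libraries numbered 4.

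The log2 ratio of Rps29 to Rps26 counts summarises this balance within a library. In GFP-high cells of the proximal small intestine it was -1.39, -1.16, -1.34 and -1.37. In GFP-high cells of the other 4 parts it ran from -4.97 to -2.49, with a median of -3.98 over 16 libraries, and so did not overlap the proximal small intestine. Along the small intestine GFP-high libraries of the middle part had -4.63, -4.05, -3.92 and -2.92, and those of the distal part -4.97, -4.45, -3.76 and -2.84.

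GFP-intermediate cells lay between -2.73 and -1.02 in all 20 libraries. GFP-negative libraries numbered 1 to 3 lay between -2.26 and -0.74 over 15 libraries, and the 5 numbered 4 between -5.0 and -3.79. The range of the 5 libraries numbered 4 thus met that of the GFP-high cells outside the proximal small intestine and not that of the other GFP-negative libraries. Comparing libraries of the same number, GFP-high had the lower ratio in 3 of 4 numbers in each part except the proximal small intestine, where it did in 2 of 4, and the exception in the 4 other parts was number 4.

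**Figure D4:**
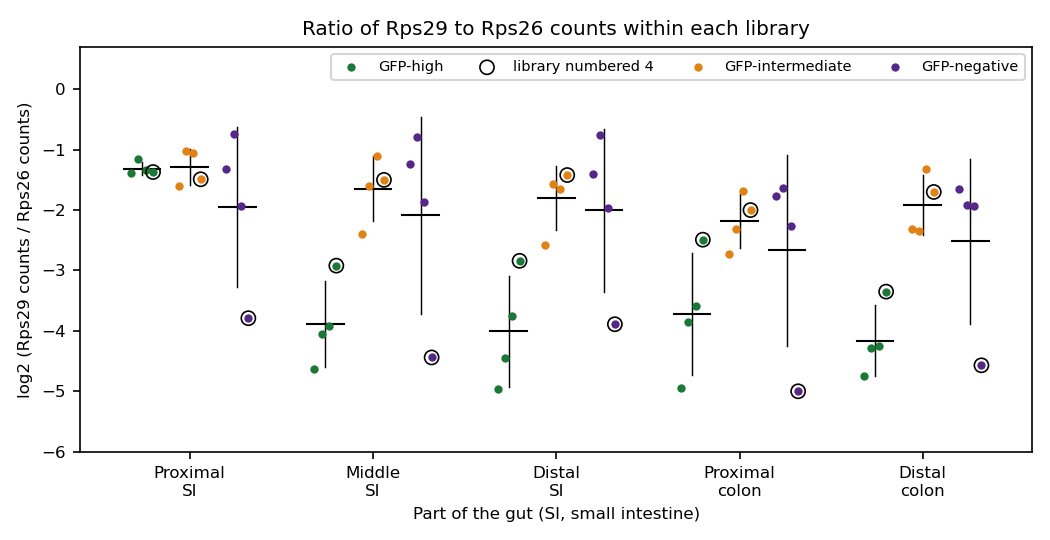
Log2 ratio of Rps29 to Rps26 counts (vertical axis) in each library, by part of the intestine and GFP fraction; circled points are the libraries numbered 4, horizontal lines the group means and thin lines the standard deviation. GFP-high cells of the 4 parts other than the proximal small intestine (-4.97 to -2.49) and the GFP-negative libraries numbered 4 (-5.0 to -3.79) lie low, and the rest lie between -2.73 and -0.74.

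The same libraries stood apart over genes outside the family. The correlation across 9130 other genes between a gene's level in a library, relative to its mean, and the GC content of its mRNA was -0.03 to 0.06 in GFP-high cells of the proximal small intestine. It was -0.44 to 0.07, with a median of -0.21, in the other GFP-high libraries, 0.04 to 0.34 in GFP-intermediate libraries, 0.07 to 0.20 in GFP-negative libraries numbered 1 to 3, and -0.36 to -0.10 in those numbered 4. The libraries with low Rps29 to Rps26 ratios were thus mostly those in which mRNAs rich in G and C were relatively low. The mRNAs of the 75 usual names used for the first component had 41.3 to 60.8% GC, with a median of 51.8%. Their median length was 751 bases against 2931 for the other genes.

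Across 75 members, the correlation of the difference between GFP-high and GFP-negative cells with GC content was 0.03 in the proximal small intestine and -0.42, -0.42, -0.40 and -0.38 in the other 4 parts. With mRNA length on a log scale it was -0.17 and 0.42, 0.46, 0.41 and 0.36. These points are genes that share the same libraries. Base composition and length moved with the balance between members, and their part in it was not tested beyond one setting, in which a GC trend was removed from each library. With that trend removed, 80, 71, 63, 35 and 41 members were called higher in GFP-high cells. Rps29 was then at 1.25 in the proximal and -0.56 in the distal small intestine. Its mRNA had 53.1% GC, near the median of 50.3% for other genes, where removing such a trend may change little. The part of GC in the Rps29 values was thus not tested by this setting.

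**Figure D5:**
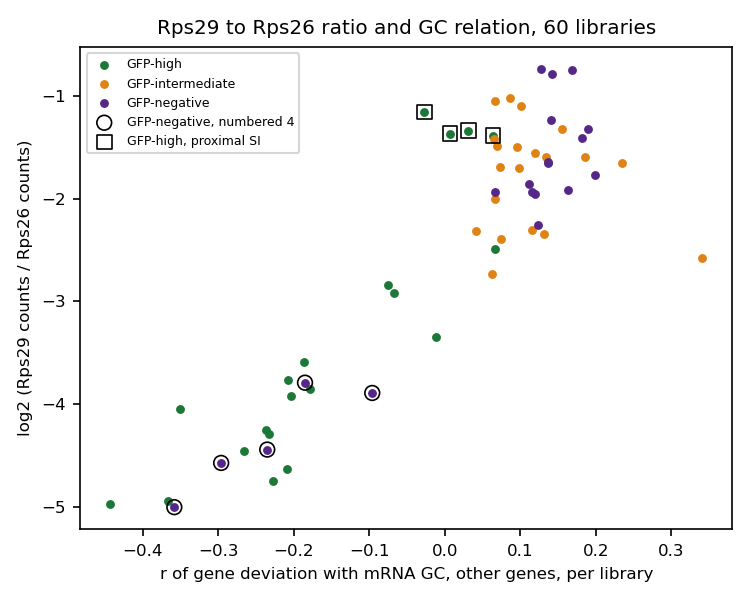
Correlation, across 9130 genes outside the family, of relative level with mRNA GC content in each library (horizontal axis) against the log2 ratio of Rps29 to Rps26 (vertical axis). Each point is a library. Circles mark the GFP-negative libraries numbered 4 and squares the GFP-high libraries of the proximal small intestine. Libraries with ratios below -3 have correlations of -0.011 or less.

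GFP-high and GFP-intermediate cells were compared over the parts of each organ, with 12 against 12 libraries in the small intestine and 8 against 8 in the colon. In the small intestine 17 members were called higher and 13 lower in GFP-high cells, where 10.4% and 13.4% of genes were called, with a member median of -0.04. In the colon 15 were called higher and 8 lower (4.83% and 7.2%), with a median of -0.07. The shares called lower, 13 and 8 of 88, were near those of all genes. On the upper side were the 5 genes with the largest positive weights on the first component, and on the lower side the 5 with the largest negative weights together with Rpl22l1. The component was computed from these same libraries, so this match is not separate evidence. Rps26, Rpl26, Rps12, Rps6 and Rpl36a were higher by 0.61, 0.52, 0.50, 0.43 and 0.43 in the small intestine and by 0.70, 0.60, 0.53, 0.48 and 0.45 in the colon. Rps29, Rps28, Rpl22l1, Rps16, Rps19 and Rpl23a were lower, with differences of -0.88, -0.73, -0.64, -0.50, -0.48 and -0.47 in the small intestine and of -1.19, -1.13, -0.79, -0.62, -0.66 and -0.73 in the colon.

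Levels in GFP-high and GFP-intermediate libraries overlapped for Rps29 in both organs, with 69 to 450.5 against 183 to 506 CPM in the small intestine and 58.4 to 148 against 127 to 322 CPM in the colon. In the proximal small intestine alone Rps29 was 429 ± 23.2 CPM in GFP-high and 403 ± 89.8 CPM in GFP-intermediate cells (SD, n = 4 each). The counts of called members were sensitive to single libraries: with replicate 3 left out across all groups, edgeR called 0 members higher and 0 lower in the colon (with all libraries 22 and 21 had an unadjusted p below 0.05, and DESeq2 called 20 and 11), and with replicate 4 left out 20 were called lower. Leaving out the proximal colon GFP-high library of replicate 1 gave 9 higher and 1 lower there. With the GC trend removed, 5 members were called lower in each organ.

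Between organs, GFP-high cells of the colon had less ribosomal protein mRNA than those of the small intestine. Of 88 members 55 were called lower and 0 higher, against 21.3% and 20.9% of genes (0 were higher at an unadjusted p below 0.05, and 0 by DESeq2), and the member median was -0.32 beside -0.04 over all genes. Among called members at 10 CPM or more, the furthest below were Rps29 (-0.99), Rps28 (-0.70), Rps21 (-0.68), Rpl13a (-0.62), Rps20 (-0.59) and Rpl38 (-0.53). Mean Rps29 was 429, 128 and 111 CPM from the proximal to the distal small intestine and 91.8 CPM in the colon. Mean Rps28 was 264, 94.1 and 80.5 CPM against 77.7 CPM, so both gaps lay mostly in the proximal small intestine. Rps20, which was 656 CPM on average in the small intestine and 435 CPM in the colon, had an adjusted p of 2.09e-09 with edgeR. With library size as the only scaling 30 members were called lower. Without replicate 2 the count was 31, and without the 5 GFP-negative libraries numbered 4, which enter through the shared spread, it was 68.

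Among GFP-negative cells 20 members were called higher in the colon and 3 lower, against 28.1% and 22.4% of genes, with a member median of 0.16 and 0.05 over all genes, so the share called higher was not above that of all genes. Among called members at 10 CPM or more, the furthest up were Rpl12 (0.35), Rpl7a (0.32), Rplp0 (0.30), Rpl3 (0.29), Rpl17 (0.29) and Rps7 (0.28). The retrocopies Rpl10-ps3 and Rpl9-ps6 were called higher by 1.16 and 0.61, at means of 0.638 and 0.877 CPM in the colon. Rps27l at -0.63, Rpl38 at -0.38 and Rpl13a at -0.38 were the 3 called lower. This comparison depended on the scaling and on 1 library: with library size only 60 members were called higher, a setting that moves the median of all genes by 0.22, and without the proximal small intestine GFP-negative library of replicate 1, 38 were.

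The difference of differences asks whether the step from GFP-negative to GFP-high is of another size in the colon. Of 88 members 52 were called lower and 1 higher, against 17.7% and 14.5% of genes, with a member median of -0.45 beside -0.07 over all genes. Among the usual names 51 of 77 were called, 30 of the large and 21 of the small subunit, and all 77 values were negative, from -0.78 to -0.15. Rplp1 had -0.68, Rps21 -0.63, Rpl14 -0.61, Rpl23 -0.57 and Rpl39 -0.56. Rplp0 had -0.44 (SE 0.09, adjusted p = 1.33e-04) and Rpl3 -0.52, while Rpsa had -0.30 (adjusted p = 0.0272) and Rps6 -0.35 (adjusted p = 0.0974), which was not called. Without replicate 2 the count called lower was 19, and without the 5 GFP-negative libraries numbered 4 it was 65.

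Within the small intestine, GFP-high cells of the distal part were compared with those of the proximal part. Here 24 members were called lower and 0 higher, against 5.42% and 6.39% of genes (1 was higher at an unadjusted p below 0.05, and 1 by DESeq2), with a median of -0.32, and in 46 members every distal library lay below every proximal one, against 13.2% of genes. Rps29 fell from 429 to 111 CPM on average, a difference of -1.96 (SE 0.45, adjusted p = 0.00191), and Rps28 from 264 to 80.5 CPM, a difference of -1.71 (adjusted p = 0.00675). Rpl22l1 fell by 1.32 (adjusted p = 0.0054). Rplp0 (-0.04), Rpsa (0.13), Rpl3 (0.01), Rpl5 (-0.03), Rps4x (-0.02) and Rpl12 (0.01) were not called. Rps26 differed by 0.66 (adjusted p = 0.0746), and by 0.68 (adjusted p = 0.00249) without the 5 GFP-negative libraries numbered 4, which enter through the shared spread. The count of members called lower was 5 without the distal GFP-high library of replicate 1, 12 to 15 without any 1 of the other libraries except the distal one of replicate 4, and 47 when only these 8 libraries were fitted. Between the proximal and distal colon, 0 of 88 GFP-high members were called in either direction, against 3.74% and 4.05% of genes, with edgeR. At an unadjusted p below 0.05, 8 were higher and 0 lower, and DESeq2 called 0. The median was 0.08, and without the proximal colon GFP-high library of replicate 3 edgeR called 2 higher.

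The paralogs stood far below most subunit proteins. Per kilobase of mRNA, Rplp1 had 1838 CPM over all libraries, Rps2 1686, Rplp0 1574, Rps26 1492, Rps12 1458 and Rpl4 1332. On the same scale of CPM per kilobase the paralogs Rps27l, Rpl7l1 and Rpl22l1 had 139, 74.0 and 42.1 beside 1158, 953 and 701 for Rps27, Rpl7 and Rpl22, and Rpl36al had 1.39 and Rpl3l 0.0505. Rpl3l, a form known from striated muscle, had at most 29 counts in a library and was called higher in the distal small intestine on 15 counts in the 4 GFP-high libraries against 0 in the 4 GFP-negative ones, a level at which a fold has little meaning. Rpl39l had at most 22 counts, and Rpl10l, a testis paralog of Rpl10, had 0 in every library, which allows up to 3 counts in each.

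Rps27l, a paralog of Rps27 that is a known target of p53, was not called between GFP-high and GFP-negative cells in any part, at -0.12, -0.18, -0.15, 0.37 and 0.32. It had 72.5, 69.4, 82.5 and 77.1 CPM in GFP-high and 83.8, 87.8, 63.3 and 93.3 CPM in GFP-negative libraries of the proximal small intestine, so the groups overlapped. Rps27 there had 541, 573, 608 and 637 against 417, 259.9, 238 and 223 CPM, with no overlap, and a difference of 1.05 (SE 0.16, adjusted p = 1.62e-07). Rps27l was the member whose difference of differences was positive and called, at 0.49 (SE 0.17, adjusted p = 0.0214). This call was lost with library size only (0.32, adjusted p = 0.157), without the 5 GFP-negative libraries numbered 4 (0.44, adjusted p = 0.081), without replicate 2 (0.34, adjusted p = 0.265), without replicate 4 (0.49, adjusted p = 0.102) and without the proximal colon GFP-high library of replicate 3 (0.36, adjusted p = 0.0718).

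The log2 ratio of Rps27l to Rps27 within a library averaged -2.97 ± 0.09 in the GFP-high and -1.76 ± 0.46 in the GFP-negative fraction of the proximal small intestine (SD, n = 4 each), a difference of -1.21. It was -1.11 in the middle part, -0.87 in the distal part, and -0.10 and -0.12 in the colon. All GFP-high ratios lay below all GFP-negative ones in the proximal and middle parts, for which the exact two-sided permutation test gives p = 0.0286, the smallest that 4 against 4 allows. The smallest value adjusted over 25 tests of 5 pairs in 5 parts was 0.102. Of those tests 10 were of Rpl39l or Rpl3l, whose ratios are set by the added 0.5 where counts are 0, and with 4 against 4 libraries no ratio could pass the adjustment unless most tests reached the smallest p. The adjusted values therefore say nothing on whether the ratios differ.

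Rpl22l1, a paralog of Rpl22 that binds RNA and can replace it in the ribosome, had 39.2, 34.3, 39.8 and 39.6 CPM in GFP-high and 25.6, 18.2, 21.8 and 8.01 CPM in GFP-negative libraries of the proximal small intestine. The groups did not overlap, and the difference was 1.05 (SE 0.33, adjusted p = 0.00739), and 0.82 (adjusted p = 0.0747) with the GC trend removed. In the distal colon it had 11.2, 12.7, 13.4 and 15.9 against 24.1, 21, 27.5 and 9.13 CPM, where 3 GFP-negative libraries lay above all GFP-high ones and the one numbered 4 below them. The difference was -0.62 (adjusted p = 0.172), and -0.87 (adjusted p = 0.00244) without the 5 GFP-negative libraries numbered 4. Rpl22 itself rose in all 5 parts, by 1.03, 1.26, 1.17, 0.59 and 0.65. Rpl7l1, a paralog that takes part in ribosome assembly, rose by 0.49 (adjusted p = 0.00159) in the proximal and 0.38 (adjusted p = 0.0139) in the distal small intestine.

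Near-identical copies limit what can be said of single members. Of the 77 usual names 76 had at least 1 other gene matching at 95% identity over 100 bases, with a median of 6 and up to 62, so reads could be split or dropped in the counting. Rpl24 averaged 0.648 CPM, Rps10 4.66 and Rpl13a 19.8, far below the other proteins of their subunits, and their counts are uncertain. The 33 members with 5 or fewer copies had median differences of 0.97, 0.79, 0.57, 0.32 and 0.25 from the proximal small intestine to the distal colon, and the 44 with more copies 0.90, 0.96, 0.77, 0.42 and 0.45. The retrocopies and 315 named pseudogene rows of other types stayed low, the latter at 0.212 to 0.596% of the member counts.

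Ribosomal proteins with other symbols fall outside the naming rule. Rack1, a scaffold on the small subunit, rose in all 5 parts, by 0.98, 1.18, 0.98, 0.63 and 0.58. Fau, from which the small subunit protein eS30 is cut, was not called in any (-0.24 to 0.05).

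Translation factors and other genes whose mRNAs are also known to begin with a pyrimidine run were mostly called higher too. Of 16 such genes 14, 15, 16, 12 and 11 were called higher and 0 lower in GFP-high against GFP-negative cells, with medians of 0.70, 0.89, 0.94, 0.48 and 0.44. Of all genes 22.5, 22.7, 25.7, 11.3 and 11.2% were called higher and 24.6, 25.6, 26.2, 14 and 13.9% lower in these comparisons, and the lists that follow are read beside the same shares. Npm1, a nucleolar chaperone, had 1.66, 1.72, 1.87, 0.98 and 1.10, and the elongation factor subunit Eef1b2 had 1.12, 1.29, 1.24, 0.66 and 0.63. In the difference of differences 12 of the 16 were called lower, against 17.7% of all genes. Of 20 ribosome biogenesis factors 19, 19, 19, 15 and 15 were called higher and 0 lower, with Gnl3 at 1.80, 1.84, 2.21, 1.08 and 0.95.

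The proteins of the mitochondrial ribosome had median differences near zero between GFP-high and GFP-negative fractions. Of 77 tested genes 15, 25, 31, 11 and 13 were called higher and 12, 11, 10, 1 and 4 lower in GFP-high against GFP-negative cells, with medians of 0.09, 0.08, 0.10, 0.07 and -0.00. Against GFP-intermediate cells in the small intestine 1 was called higher and 44 lower, where 10.4 and 13.4% of all genes were. In GFP-high cells of the colon against the small intestine 0 were called higher and 51 lower, where 20.9 and 21.3% of all genes were. Mrps31 had -0.97 (adjusted p = 1.2e-22) in the last comparison.

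Counts for known regulators of ribosome production were mostly near the shares of all genes. Of 22 genes of mTOR and Myc control 9, 7, 7, 3 and 3 were called higher and 4, 7, 7, 2 and 3 lower. Myc had 2.61, 2.84, 3.05, 1.31 and 1.32, with a difference of differences of -1.52 (adjusted p = 8.33e-11), and Max, its dimer partner, and Mxd1, which competes for Max, were lower in GFP-high cells of the proximal small intestine, at -1.01 and -2.95. Of 12 genes of ribosome quality control and p53 surveillance 2, 1, 2, 1 and 2 were called higher and 2, 3, 2, 1 and 2 lower, shares near or below those of all genes. Trp53 had 1.34, 1.60, 1.77, 1.04 and 1.16, and its target Cdkn1a, a cell cycle inhibitor, had -2.79, -3.25, -3.38, -1.53 and -2.01.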

How the data were processed

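RNA from sorted cells (polyA RNA) was sequenced by the authors and deposited as a table of whole read counts per gene and library, with no normalization. Alignment to mm10 with STAR, counting with featureCounts of Subread, and edgeR are named in the submitters' processing notes; versions, the library kit and strandedness are not given in the sources used here. Samples were grouped by part and GFP fraction from their titles. Genes were filtered with filterByExpr over the 15 groups, scaled by TMM and fitted with edgeR 4.0.16 (limma 3.58.1, R 4.3.3) as quasi-likelihood group means of all 60 libraries, with Benjamini-Hochberg adjustment over 23360 genes. CPM values use TMM library sizes. Lengths, GC content and near-identical copies came from GENCODE models of GRCm38. Paralog ratios used log2 of counts plus 0.5. Alternatives were DESeq2 1.42.0, its size factors, library size only, no filter, only the groups compared, a replicate block, leaving out replicates, and, added after the data were seen, a GC trend removal (GC known for 16115 genes and all 88 members) and leaving out the 5 GFP-negative libraries numbered 4. The fit recovered changes of known size in simulated data. There the genes were drawn independently and changed in a single group, without the balance between members seen in these libraries.

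Genes named are up to 6 members per direction and comparison with the largest called difference at 10 CPM or more, a fixed set of members, and up to 4 genes per other list by p, except that some are not reported here. The members and lists were chosen with earlier results of these data known. Shared batch numbers could pair libraries: over 20 pairs of GFP-high and GFP-negative libraries of a part, deviations from the group means correlated at 0.04 on average, at -0.471 at the lowest and above 0.1 in 8.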

Additional observations from a re-analysis of the deposited data

Results flagged for a closer look

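In groups of 4 libraries, 253 sets of values were screened for a library far from the other three, and 17 were flagged, where chance flags about 1 in 20. The ribosomal protein share was high in the GFP-high library of replicate 2 of the proximal small intestine, at 6.79%. In the same library Rpl3 was high at 1843 CPM and Rpl22l1 low at 34.3 CPM. Rpl3 was also high in the GFP-negative library of replicate 1 of that part, at 943 CPM, and in the GFP-intermediate library of replicate 2 of the distal colon, at 1367 CPM, where Rps27 was low at 339 CPM.

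Of the 17 flags 8 fell on the GFP-negative libraries numbered 4. In the middle small intestine Rps26 was high at 908 CPM, and in the distal small intestine Rps26 and Rps6 were high at 988 and 768 CPM. The low values were Rpl7l1 at 66.4 CPM in the proximal small intestine, and Rpl22l1 at 9.31 CPM in the proximal colon. The log2 ratio of Rpl22l1 to Rpl22 was -4.89 in the proximal and -4.79 in the middle small intestine, and that of Rps29 to Rps26 was -4.57 in the distal colon. Among GFP-intermediate libraries the Rpl22l1 to Rpl22 ratio stood out at -3.65 in replicate 1 of the proximal small intestine and the Rps27l to Rps27 ratio at -2.24 in replicate 1 of the middle small intestine. Rps27l stood out at 88.8 CPM in replicate 3 of the distal colon.

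The step from GFP-negative to GFP-high differed between colon and small intestine, by the interaction test of edgeR, for the 18 members given here. It was larger in the colon for Rps27l, at 0.49, a call lost with library size only, without replicate 2, without replicate 4, without the 5 GFP-negative libraries numbered 4 and without the proximal colon GFP-high library of replicate 3. It was smaller for Rplp1 (-0.68), Rps21 (-0.63), Rpl14 (-0.61), Rpl23 (-0.57), Rpl39 (-0.56), Rpl22 (-0.53), Rpl3 (-0.52), Rps3 (-0.49), Rps27 (-0.49), Rpl10a (-0.47), Rpl11 (-0.45), Rplp0 (-0.44), Rpl5 (-0.44), Rps4x (-0.39), Rps27a (-0.39), Rpsa (-0.30) and Rpl10 (-0.27).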

How the results depend on the processing

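Of 9501 recomputed values of single named genes, 8770 kept their direction and side of the threshold, 568 were no longer called, 163 were newly called and 0 changed sign with a call. The replicate block gave 81, 67, 64, 42 and 40 members called higher in GFP-high against GFP-negative cells from the proximal small intestine to the distal colon and 52 lower in the difference of differences between organs, and moved no count of members by over 1.5 times. Scaling by library size only moved the median of all genes by 0.21, 0.18 and 0.11 from the proximal to the distal small intestine, 0.22 between the organs in GFP-negative cells and -0.16 in the difference of differences, and DESeq2's size factors moved it by -0.12 in the distal small intestine. Where a count below changed, the cause was not tested.

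With DESeq2, 1 member was called lower in the proximal colon and 1 higher between distal and proximal small intestine. With the GC trend removed, 1 was called lower in the distal small intestine and 1 in the proximal colon, and 5 were lower in GFP-high against GFP-intermediate cells in each organ. With library size only, 7 and 5 were lower in GFP-high against GFP-intermediate cells of small intestine and colon, 30 lower between organs in GFP-high cells, 60 higher and 1 lower in GFP-negative cells, and 0 higher in the difference of differences. With no filter these counts of lower members were 7, 5 and 36, and 15 between distal and proximal small intestine. With only the groups compared, 20 were higher in the proximal colon, 26 and 17 lower against GFP-intermediate cells, 7 higher between organs in GFP-negative cells, and 4 higher and 47 lower between distal and proximal small intestine. Without the 5 GFP-negative libraries numbered 4, the counts called lower against GFP-negative cells were 1, 2, 1 and 3 from the middle small intestine to the distal colon, 22 and 17 were lower against GFP-intermediate cells, 2 were higher between distal and proximal small intestine, and 0 were higher in the difference of differences. The proximal GFP-high share was 6.57% of all counts and 6.88% without mitochondrially encoded genes.

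Counts were also taken with a replicate left out, in one group or in all, and the dispersions held. Against GFP-negative cells they ran from 18 to 45 higher in the proximal and from 31 to 39 higher in the distal colon. The counts lower ran from 0 to 2 in the middle and distal small intestine. In the colon the counts lower ran from 0 to 6 in the proximal and 0 to 7 in the distal part. The upper ends of these counts lower came without replicate 4. Against GFP-intermediate cells the counts ran from 11 to 19 higher and 1 to 23 lower in the small intestine. In the colon they ran from 0 to 19 higher and 0 to 20 lower. Between organs they ran from 31 to 60 lower in GFP-high cells, and from 5 to 38 higher and 1 to 3 lower in GFP-negative cells. Between distal and proximal small intestine they ran from 0 to 2 higher and 3 to 33 lower, between distal and proximal colon from 0 to 2 higher, and in the difference of differences from 0 to 1 higher and 19 to 63 lower.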
